A study of Mus musculus with 6 samples.

Results

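Id2, Id3, Tcf3, Tcf4 and Tcf12 encode the Id proteins and the E proteins that T cells transcribe. They were taken by symbol from a table of 38216 gene symbols, and all 5 were present and passed the filter on low values. RNA was measured in splenic CD4+ T cells of C57BL/6 mice on postnatal day 28. All the mice carried the IL21-VFP reporter, which makes cells that transcribe the cytokine gene Il21 fluoresce. Cells were sorted by VFP and by ICOS, a costimulatory receptor of activated T cells, into the pools N (VFP-ICOS-), ACT (VFP-ICOS+) and ACT IL21 (VFP+ICOS+), with 2 libraries each. The ICOS+ pools were defined by these sort markers alone, so each may hold several kinds of helper cell, and the labels do not say whether the libraries of a pool came from different animals.

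E proteins are basic helix-loop-helix transcription factors that pair with each other and bind short DNA motifs called E-boxes. Id proteins carry the helix-loop-helix but lack the basic region, so an E protein paired with an Id protein cannot bind DNA. In T cells the E proteins guide development and restrain activation. Id2 is best known from effector T cells and innate lymphocytes, and Id3 from naive, follicular helper and memory precursor cells.

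Levels are TPM, a transcript abundance scaled by transcript length and by the library total, so levels of different genes can be set side by side. The number of reads behind each library is unknown. Genes at or above 1 TPM numbered 12095 to 12396 per library. The 9 T cell marker genes listed for the check of identity were all present and summed to between 4243 and 6011 TPM per library. The B cell markers Pax5, Blk and Fcrla, and the plasmacytoid dendritic cell markers Siglech, Cox6a2 and Klk1, were listed at 0 in all 6 libraries. Other members of these lists were present. The B cell marker Cd22 had 0 and 0.07 TPM in N, 1.62 and 3.68 TPM in ACT, and 13.09 and 17.45 TPM in ACT IL21, and the remaining B cell markers were at most 2.47 TPM. Of the plasmacytoid dendritic cell list, Bst2, Pacsin1, Ccr9 and Irf8 were tested, and Ccr9, also a homing receptor gene of T cells, was the only one to pass, with 12.8 and 10.96 TPM in N, 93.45 and 80.78 TPM in ACT, and 11.45 and 11.96 TPM in ACT IL21. Of the CD8 T cell markers, Cd8a was at most 0.36 TPM. Cd8b1 had 26.68 and 18.73 TPM in N, 5.59 and 7.41 TPM in ACT, and 9.8 and 3.41 TPM in ACT IL21, and did not pass. Of 8 myeloid and dendritic cell markers 3 were tested. Only Cst3 passed, higher in ACT (68.3 and 51.83 TPM) than in N (31.62 and 26.51 TPM). Differences are log2 fold changes of TPM + 1 from limma fitted to all genes, with Benjamini-Hochberg adjusted p-values. A gene passed at an adjusted p below 0.05.

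Because the Id2 to Id3 ratio is read from 2 related genes, the coding stretch in which their sequences are most alike is shown first, taken from the GENCODE M21 transcripts on GRCm38. Id2 lies on chromosome 12 (25093799 to 25097140, minus strand) and Id3 on chromosome 4 (136143497 to 136145755, plus strand). Both stretches are coding sequence of exon 1, at chr12:25095773-25095923 for Id2 and at chr4:136143981-136144131 for Id3, written 5′ to 3′, and capitals mark the bases that differ between them.
Id2: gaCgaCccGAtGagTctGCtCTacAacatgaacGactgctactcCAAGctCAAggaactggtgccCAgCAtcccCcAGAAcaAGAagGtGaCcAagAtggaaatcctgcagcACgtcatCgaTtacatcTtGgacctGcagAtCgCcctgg
Id3: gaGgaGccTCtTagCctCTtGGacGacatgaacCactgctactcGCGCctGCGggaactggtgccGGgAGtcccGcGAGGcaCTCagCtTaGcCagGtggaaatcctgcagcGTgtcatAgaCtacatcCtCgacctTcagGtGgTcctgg
Of these 151 bases 105 were identical (69.5%), and the longest run shared by the 2 coding sequences was 15 bases. Of all 50-base windows of their annotated transcripts, 0.329% of those of Id2 and none of those of Id3 also occurred in another gene's transcripts. The Id2 windows that did so matched Gm6175 and not Id3.

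The E-protein genes Tcf3 (chromosome 10, 80409514 to 80433647, minus strand) and Tcf12 (chromosome 9, 71842688 to 72111871, minus strand) are shown in the same way, because their levels are summed further on. A single transcript was compared per gene, Tcf3-209 and Tcf12-202. The most alike stretch of these transcripts lies in exon 18 of Tcf3, at chr10:80410398-80410618, and in exon 19 of Tcf12, at chr9:71856305-71856525.
Tcf3: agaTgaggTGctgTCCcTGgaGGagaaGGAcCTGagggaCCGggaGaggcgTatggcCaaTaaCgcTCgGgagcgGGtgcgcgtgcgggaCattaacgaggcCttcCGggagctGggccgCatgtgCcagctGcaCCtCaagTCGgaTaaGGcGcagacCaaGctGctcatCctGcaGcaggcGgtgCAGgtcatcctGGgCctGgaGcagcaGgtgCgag
Tcf12: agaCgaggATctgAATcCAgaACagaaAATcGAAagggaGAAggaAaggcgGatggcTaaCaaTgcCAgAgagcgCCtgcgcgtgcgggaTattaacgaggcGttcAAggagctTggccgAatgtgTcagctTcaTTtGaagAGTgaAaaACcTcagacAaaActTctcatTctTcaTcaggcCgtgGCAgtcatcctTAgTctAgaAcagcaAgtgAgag
Here 157 of 221 bases were identical (71%), and the longest run shared by the coding sequences of these transcripts was 18 bases. None of the 50-base windows of Tcf3, 0.242% of those of Tcf12 and 0.228% of those of Tcf4 occurred in another gene. Tcf12 contains several short annotated loci within its span, so a small part of its value could belong to them. Tcf3 has alternative exons that give its proteins different basic helix-loop-helix domains, and a gene-level value does not separate them. Exons outside Tcf3-209 were not compared with Tcf12, so the likeness given holds only for the transcripts shown. The table lists Tcf7l1, which older texts also called Tcf3, on a row of its own.

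Id2, whose protein holds E proteins off DNA in effector lymphocytes, differed between every pair of pools. It stood at 50.71 and 54.87 TPM in N, 860.15 and 693.14 TPM in ACT, and 210.26 and 159.19 TPM in ACT IL21. The 3 pools did not overlap, with N lowest, ACT IL21 between and ACT highest. Pools of 2 libraries separate easily: among all genes tested 47.0% did not overlap between ACT and N, 51.4% between ACT IL21 and N, and 41.8% between ACT IL21 and ACT. Id2 rose from N to ACT by 3.85 ± 0.18 (SE) on the log2 scale (limma adjusted p = 3.93e-05, 95% interval 3.42 to 4.27). It also rose from N to ACT IL21, by 1.78 ± 0.18 (limma adjusted p = 0.00211, interval 1.35 to 2.2). From ACT to ACT IL21 Id2 fell by 2.07 ± 0.18 on the log2 scale (limma adjusted p = 0.00324). In ACT it was more abundant than at least 98.7% of the 13311 genes tested, against 78.9 and 80.7% in the N libraries. The comparisons share libraries, so the 3 differences are not independent of each other. With any single library left out and the genes tested held fixed, the rise in ACT kept its call (adjusted p up to 0.00249). The rise in ACT IL21 lost its call without ACT IL21 replicate 1 (log2 fold change 1.58, adjusted p = 0.0604), and the fall from ACT lost its call without ACT IL21 replicate 1 (-2.27, adjusted p = 0.0624) or replicate 2 (-1.87, adjusted p = 0.0982). When the filter on low values was instead applied anew to the libraries kept, all 3 Id2 differences passed in each fit, with adjusted p-values up to 0.000492, 0.029 and 0.0395. In these bulk pools a smaller share of cells with Id2 RNA and less Id2 RNA per cell cannot be told apart.

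Among the 5 genes, Id2 alone passed in each comparison by limma. Over all genes tested, 5.58% passed between ACT and N, 5.09% between ACT IL21 and N, and 1.95% between ACT IL21 and ACT, and the share that passed as higher was 4.15%, 3.82% and 0.796%. In the test among the 3 pools, Id2 had an adjusted p = 0.000107 (limma F test, passed by 7.03% of all genes) and the other members had adjusted p-values from 0.173 for Id3 to 0.535 for Tcf3.

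**Figure D1:**
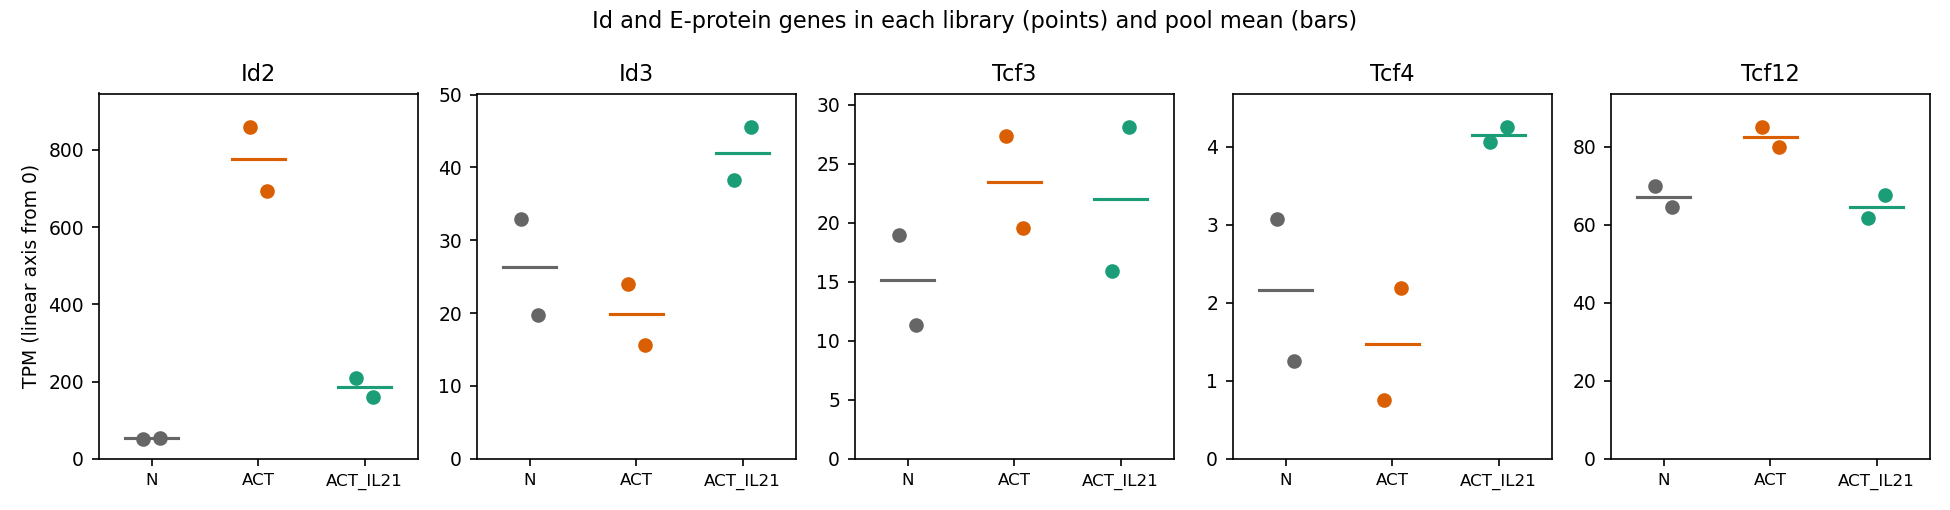
TPM of each Id and E-protein gene on linear axes from 0, with 1 point per library and a bar at the pool mean. Id2 separates the 3 pools, with the ACT libraries at 860.15 and 693.14 TPM, while the axes of the other genes end below 100 TPM.

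Id3, the other Id gene that these cells transcribed, did not follow Id2. It stood at 32.96 and 19.68 TPM in N, 23.97 and 15.65 TPM in ACT, and 38.26 and 45.58 TPM in ACT IL21. The N and ACT libraries overlapped, and both ACT IL21 libraries lay above all the others. No Id3 difference passed. The value for ACT IL21 against ACT was 1.07 ± 0.32 (SE, interval 0.33 to 1.8, limma adjusted p = 0.166), against N it was 0.69 (interval -0.04 to 1.43, adjusted p = 0.301), and for ACT against N it was -0.38 (interval -1.11 to 0.36, adjusted p = 0.603). Libraries of 1 pool differed more for Id3 than for Id2, with within-pool SDs of 0.39 and 0.212 on the log2 scale and a median of 0.317 over all genes tested.

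The ratio of Id2 to Id3 TPM was 1.54 and 2.79 in the N libraries, 35.9 and 44.3 in ACT, and 5.5 and 3.49 in ACT IL21. Id2 therefore outnumbered Id3 in all 6 libraries, and the pools did not overlap in this ratio. On the log2 scale of TPM + 1 the balance was 1.02 ± 0.58 in N, 5.24 ± 0.19 in ACT and 2.1 ± 0.46 in ACT IL21 (SD, n = 2 libraries each). Its difference was 4.22 between ACT and N, 1.08 between ACT IL21 and N, and -3.14 between ACT IL21 and ACT. With 1 ACT IL21 or N library left out, the difference between ACT IL21 and N ranged from 0.67 without N replicate 1 to 1.5 without N replicate 2. An exact permutation test among the 3 pools gave p = 0.0667, the smallest that the 90 assignments of 6 libraries allow, so this design cannot reach the 0.05 threshold. Any pair of pools gave an exact two-sided p = 0.333, likewise the smallest possible with 2 libraries against 2.

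**Figure D2:**
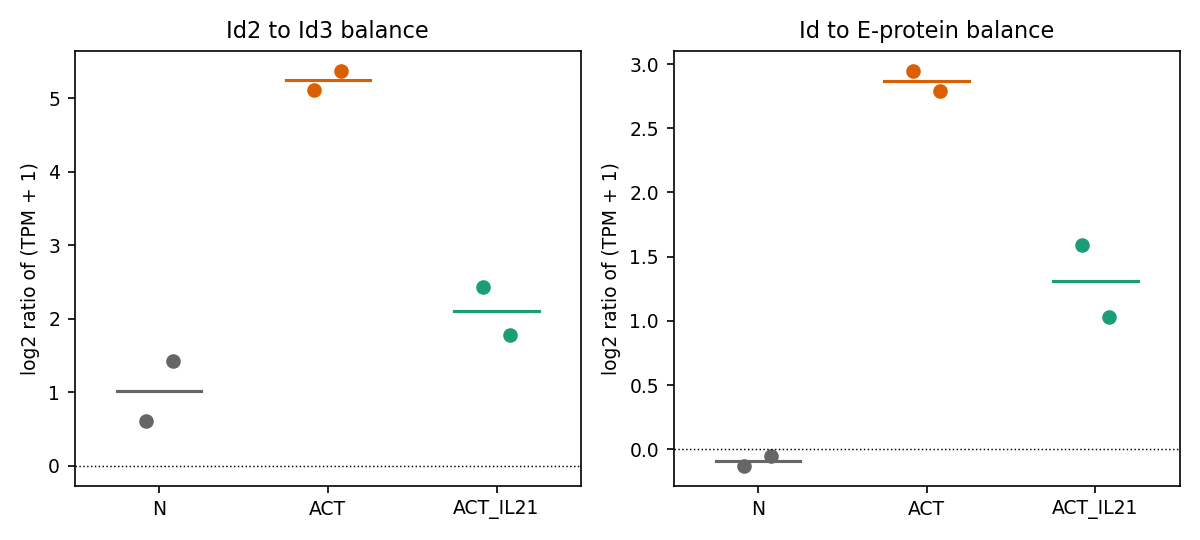
Left, log2 ratio of Id2 to Id3, and right, log2 ratio of summed Id2 and Id3 to summed Tcf3, Tcf4 and Tcf12, each from TPM + 1, with 1 point per library, a bar at the pool mean and a dotted line at equal levels. In both panels N is lowest, ACT IL21 is between and ACT is highest, and the N libraries lie next to equality on the right at -0.13 and -0.05.

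Tcf12, which encodes the E protein HEB, was the most abundant E-protein gene in every library. It stood at 69.86 and 64.47 TPM in N, 85.16 and 79.96 TPM in ACT, and 61.82 and 67.57 TPM in ACT IL21. Both ACT libraries lay above the other 4, and N and ACT IL21 overlapped. The log2 fold change was 0.29 ± 0.16 (SE) for ACT against N (interval -0.08 to 0.67, limma adjusted p = 0.394), -0.05 for ACT IL21 against N (interval -0.43 to 0.32, adjusted p = 0.908) and -0.35 for ACT IL21 against ACT (interval -0.72 to 0.03, adjusted p = 0.375). None passed. Its within-pool SD of 0.079 on the log2 scale was smaller than that of all but 3.6% of the genes tested.

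Tcf3 encodes the E proteins E12 and E47, which are needed for early B and T cell development. It stood at 18.97 and 11.38 TPM in N, 27.37 and 19.6 TPM in ACT, and 15.92 and 28.15 TPM in ACT IL21. The ACT IL21 libraries spanned most of the range of the other 4, and no difference passed. The log2 fold change was 0.62 for ACT against N (interval -0.24 to 1.48, limma adjusted p = 0.441), 0.5 for ACT IL21 against N (interval -0.37 to 1.36, adjusted p = 0.547) and -0.12 for ACT IL21 against ACT (interval -0.99 to 0.74, adjusted p = 0.915). The last of these turned positive without ACT replicate 1 (0.11) or ACT IL21 replicate 1 (0.27).

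Tcf4 (chromosome 18, plus strand), the E-protein gene of plasmacytoid dendritic cells, was the lowest member. It stood at 3.08 and 1.26 TPM in N, 0.76 and 2.19 TPM in ACT, and 4.06 and 4.26 TPM in ACT IL21. Both ACT IL21 libraries were above the other 4, at levels where the log2(TPM + 1) scale understates changes. The value for ACT IL21 against ACT was 1.12 ± 0.51 (SE, interval -0.06 to 2.3, limma adjusted p = 0.361), for ACT IL21 against N 0.76 (adjusted p = 0.491) and for ACT against N -0.36 (adjusted p = 0.783), and none passed. The Tcf4 value for ACT against N was 0.07 without N replicate 1 or without ACT replicate 1.

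**Figure D3:**
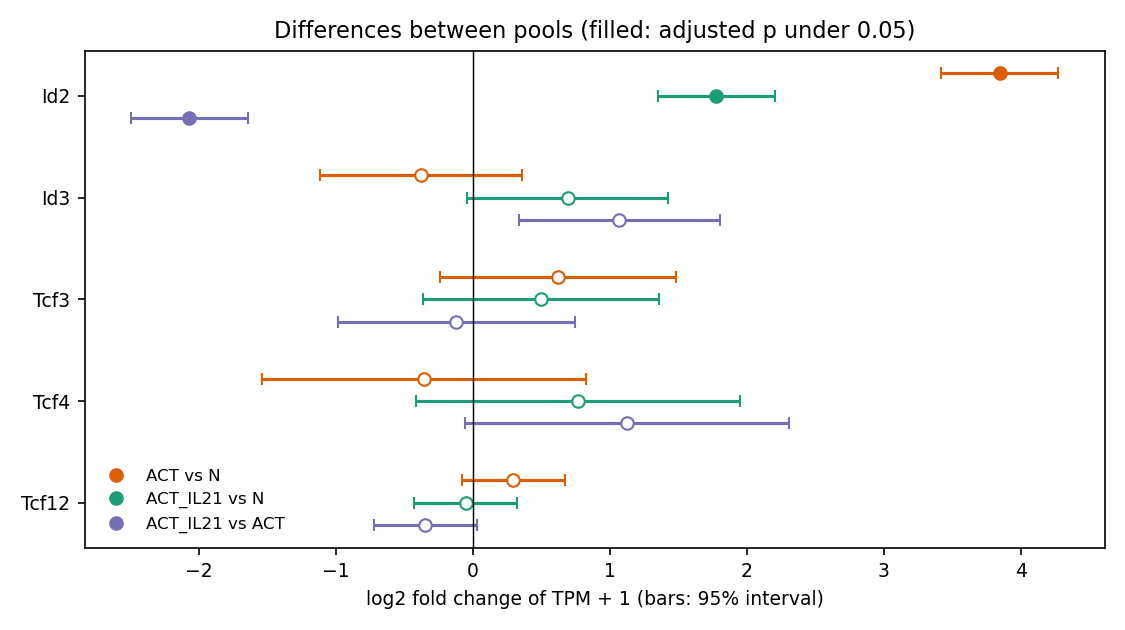
Log2 fold changes of TPM + 1 for each gene in the 3 comparisons, with bars for 95% intervals from limma and filled points for adjusted p below 0.05. Only the 3 Id2 points are filled, at 3.85, 1.78 and -2.07, and the intervals of the E-protein genes all include 0.

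The intervals bound what these libraries could show. For Tcf12 they exclude a change of 1 on the log2 scale (2-fold) in any comparison, whereas for Tcf3 and Tcf4 they reach beyond 1 in at least 2 comparisons, so a 2-fold change of these is not excluded there.

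The 3 E-protein genes summed to 91.91 and 77.11 TPM in N, 113.29 and 101.75 TPM in ACT, and 81.8 and 99.98 TPM in ACT IL21. Tcf12 made up between 67.6 and 83.6% of this sum, Tcf3 between 14.8 and 28.2%, and Tcf4 at most 4.96%. The summed Id genes were at 83.67 and 74.55 TPM in N, 884.12 and 708.79 TPM in ACT, and 248.52 and 204.77 TPM in ACT IL21. The ratio of Id to E-protein TPM was thus 0.91 and 0.967 in N, 7.8 and 6.97 in ACT, and 3.04 and 2.05 in ACT IL21. The pools did not overlap, with an exact permutation p = 0.0667 among the 3 pools, the smallest possible. Id2 made up between 60.6 and 97.8% of the summed Id2 and Id3 TPM, so this ratio repeats the Id2 pattern in large part. These are RNA levels, and protein levels were not measured.

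Markers of other cell types that a CD4+ICOS+ gate could hold also differed between the pools. Several rose with Id2 in ACT against N, while in ACT IL21 against N the natural killer and regulatory markers went both ways. The 10 natural killer and NKT cell markers summed to 52.24 and 59.92 TPM in N, 381.93 and 367.92 TPM in ACT, and 51.11 and 53.5 TPM in ACT IL21. Of the 8 that were tested, 4 were higher and none lower in ACT than in N, and 5 were lower in ACT IL21 than in ACT. Over all genes tested, 4.15% passed as higher and 1.43% as lower in ACT against N. The shares were 3.82% and 1.26% in ACT IL21 against N, and 0.796% and 1.15% in ACT IL21 against ACT. Among the 5 that were lower, Zbtb16 lost its call in every fit that left out 1 library, in both versions (log2 fold change -3.66 to -2.3). Klrb1c, which encodes the NK1.1 antigen, was at 2.56 and 2.38 TPM in N, 166.08 and 177.29 TPM in ACT, and 25.49 and 25.7 TPM in ACT IL21. With the genes held fixed, its fall from ACT lost its call without ACT IL21 replicate 1 (log2 fold change -2.69) or replicate 2 (-2.7). With the filter applied anew it kept its call in every fit. Ncr1, which encodes a defining receptor of natural killer cells, was hardly found in any pool. It was at 0.79 and 0 TPM in N, 0 and 1.06 TPM in ACT, and 0 in both ACT IL21 libraries. Klra8 was at 0 apart from 0.17 TPM in ACT replicate 1. Klre1 was at 0 in N and ACT IL21 and at 4.34 and 3.83 TPM in ACT. The sums of N and ACT IL21 overlapped, but their members differed: in ACT IL21 against N, Klrb1c was higher (log2 fold change 2.94, limma adjusted p = 0.000419), and Klrd1 (-1.8, adjusted p = 0.0198) and Prf1 (-2.95, adjusted p = 0.0363) were lower. Prf1 was at 7.27 and 7.93 TPM in N and at 0.24 and 0 TPM in ACT IL21. How the Klrd1 and Prf1 calls fared with a library left out is not given. The 8 regulatory T cell markers summed to 234.47 and 253.52 TPM in N, 890.19 and 999.43 TPM in ACT, and 504.45 and 556.16 TPM in ACT IL21. All 8 were tested, and 7 were higher and none lower in ACT than in N. In ACT IL21 against N, 4 were higher (Ikzf2, Ctla4, Nrp1 and Capg) and 3 were lower (Foxp3, Il2ra and Ikzf4), and in ACT IL21 against ACT none was higher and 4 were lower. The sum therefore joins genes that went opposite ways. Foxp3, the defining gene of that lineage, was lowest in ACT IL21, at 1.57 and 2.69 TPM, as was Il2ra, at 7.16 and 8.48 TPM against 46.08 and 64.23 TPM in N. None of the 8 was at 0 in both libraries of a pool. The sums of the 8 follicular helper markers were highest in ACT IL21, at 639.63 and 535.62 TPM. They were 337.91 and 271.23 TPM in ACT and 152.57 and 133.9 TPM in N. In ACT IL21 against ACT 5 of the 8 passed as higher (Bcl6, Cxcr5, Tox2, Il21 and Cd200) and 3 did not pass. Il21 is the gene whose reporter defined the sort, so its part in these sums was set by the gate. The part of these cells in the Id2 differences was not tested.

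**Figure D4:**
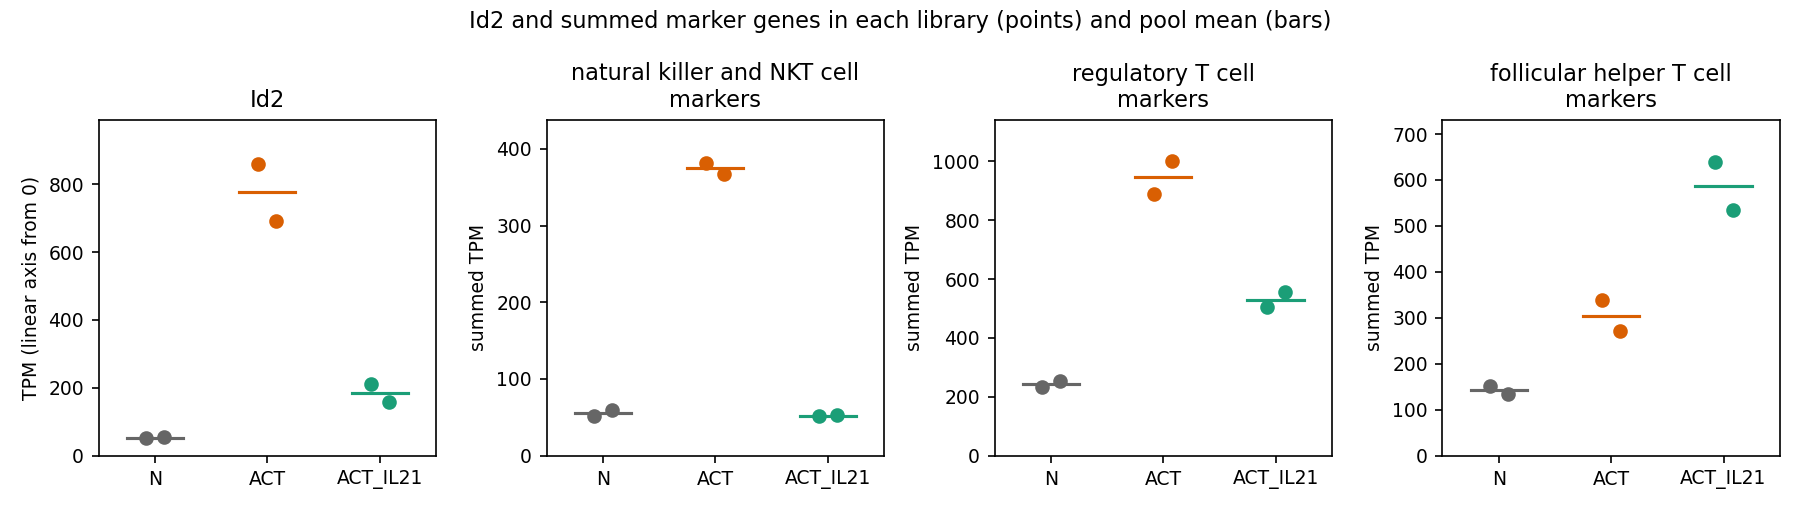
Id2 and the summed TPM of the natural killer and NKT cell, regulatory T cell and follicular helper T cell marker lists, on linear axes from 0 with 1 point per library and a bar at the pool mean. Id2 and the summed regulatory markers, whose members differ in direction, are lowest in N and highest in ACT. The summed natural killer and NKT markers are high in ACT only. The summed follicular helper markers, which include the sorted reporter's gene Il21, are highest in ACT IL21.

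The remaining Id genes and most tissue-restricted partners of E proteins were hardly transcribed. Id4 was listed at 0 in all 6 libraries, and Id1 reached at most 1.07 TPM. Of the 20 genes in the list of other Id and tissue-restricted helix-loop-helix genes, 18 did not pass the filter on low values. Bhlhe40, whose protein is a helix-loop-helix repressor that activated T cells induce, rose from N, with 4.49 and 5.94 TPM, to ACT, with 194.1 and 164.63 TPM, and to ACT IL21, with 62.34 and 75.8 TPM. Its log2 fold change was 4.86 for ACT against N (limma adjusted p = 3.44e-05) and 3.5 for ACT IL21 against N (adjusted p = 0.00022), and both held with any library left out. Ascl2, which encodes an E-protein partner that induces Cxcr5 in follicular helper cells, was listed at 0 in N and ACT and at 3.9 and 1.1 TPM in ACT IL21, and did not pass.

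Cofactors that bind E proteins or their complexes mostly did not pass. Of 14 such genes 11 were tested, with 1 higher in ACT than in N (median log2 fold change -0.28, against 0.02 over all genes), none called in ACT IL21 against N (0 at an unadjusted p below 0.05), and 1 lower in ACT IL21 than in ACT. Over all genes tested, 4.15% passed as higher in ACT than in N and 1.15% as lower in ACT IL21 than in ACT. The called gene was Lmo4, which encodes a LIM-domain adaptor. It stood at 17.45 and 13.44 TPM in N, 105.78 and 52.75 TPM in ACT, and 19.44 and 12.12 TPM in ACT IL21. Lmo4 rose in ACT by 2.21 ± 0.38 (SE, limma adjusted p = 0.014) and was lower by the same amount in ACT IL21 (adjusted p = 0.0282), and with the genes tested held fixed each call held in only 1 of 6 fits that left out 1 library, the one without ACT replicate 2. With the filter applied anew the rise held in 4 of 6, all but those without an N library, and the fall again only without ACT replicate 2. Of the 8 genes that act on Id or E-protein stability, among them Usp1, which encodes a deubiquitinase of Id proteins, none passed in any comparison by limma. An unadjusted p below 0.05 was found for 1 in ACT against N, 3 in ACT IL21 against N and 0 in ACT IL21 against ACT. Over the 13311 genes tested, 2471, 2485 and 1978 had such a p in these comparisons in turn.

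Genes reported as E-protein targets in lymphocytes went both ways. Of 20 such genes 14 were tested, and the thymocyte genes Ptcra, Rag1 and Rag2 were among the 6 that did not pass the filter. In ACT against N 7 rose and 1 fell (median log2 fold change 0.98, against 0.02 over all genes), in ACT IL21 against N 5 rose and 2 fell (0.83, against 0.1), and in ACT IL21 against ACT 2 rose and 3 fell (0.03, against 0.08). Over all genes tested, 4.15%, 3.82% and 0.796% passed as higher in these comparisons in turn, and 1.43%, 1.26% and 1.15% as lower. Cxcr5, the receptor gene that takes T cells to B cell follicles, was at 3.85 and 1.54 TPM in N, 17.79 and 15.03 TPM in ACT, and 95.03 and 91.91 TPM in ACT IL21. Its rise over N was 4.75 in ACT IL21 (limma adjusted p = 0.000378) and held with any library left out. The rise of Cxcr5 from ACT to ACT IL21 (2.44, limma adjusted p = 0.0155) lost its call without either ACT IL21 library in both versions. Without either ACT library it lost its call only with the genes held fixed. Il7r, which encodes the interleukin-7 receptor alpha chain, fell by 1.41 on the log2 scale from ACT to ACT IL21 (limma adjusted p = 0.00661), with 450.86 and 548.67 TPM in ACT against 170.81 and 204.56 TPM in ACT IL21. Zbtb16, which encodes PLZF, a factor of innate-like T cells, had 0 and 0.18 TPM in N, 40.05 and 27.31 TPM in ACT, and 5.91 and 1.7 TPM in ACT IL21. Its fall from ACT to ACT IL21 (-2.98, limma adjusted p = 0.0333) lost its call in every fit that left out 1 library, in both versions. Foxp3, the regulatory lineage gene, was at 22.19 and 19.38 TPM in N, 65.43 and 51.87 TPM in ACT, and 1.57 and 2.69 TPM in ACT IL21. Foxp3 fell by 2.82 on the log2 scale from N to ACT IL21 (limma adjusted p = 0.00251). With the genes held fixed this call was lost without N replicate 1 (0.0606) or N replicate 2 (0.0513), and with the filter applied anew it held in all 6 fits. The rise of Foxp3 in ACT (1.45, adjusted p = 0.0367) lost its call without either N or either ACT library in both versions, and without either ACT IL21 library only with the genes held fixed. Foxp3, Zbtb16 and Cxcr5 also stand in the marker lists above, so they are counted under both. With 1 library left out and the genes tested held fixed, the 7 targets higher in ACT were between 1 (without N replicate 2) and 3, and the 5 higher in ACT IL21 were 1 without either N or either ACT IL21 library. With the filter applied anew these counts ranged from 2, without either N library, to 6 and from 1 to 6. The fall of Il7r from ACT lost its call without ACT IL21 replicate 1 (adjusted p = 0.117, or 0.0779 with the filter applied anew) or replicate 2 (adjusted p = 0.12, or 0.0644).

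All 18 genes listed as acting on Id2 or Id3 were tested. In ACT against N 3 rose and 3 fell (median log2 fold change -0.08, against 0.02 over all genes). In ACT IL21 against N 4 rose and 1 fell (0.42, against 0.1), and in ACT IL21 against ACT 2 rose and 1 fell (0.56, against 0.08). Over all genes tested, 4.15% passed as higher and 1.43% as lower in ACT against N. The shares were 3.82% and 1.26% in ACT IL21 against N, and 0.796% and 1.15% in ACT IL21 against ACT. Tbx21, the type 1 helper factor gene, had no listed TPM above 0 in N. It was found at 28.5 and 13.87 TPM in ACT and 4.23 and 6.54 TPM in ACT IL21. Against N it rose by 4.39 in ACT (limma adjusted p = 0.00178) and by 2.65 in ACT IL21 (adjusted p = 0.0193). Its fall from ACT to ACT IL21 did not pass (-1.74, adjusted p = 0.13). The Tbx21 call in ACT IL21 against N was lost without either N or either ACT IL21 library. This was so with the genes held fixed and with the filter applied anew. Prdm1, which encodes Blimp-1, was at 8.49 and 8.36 TPM in N, 38.64 and 45.86 TPM in ACT, and 10.51 and 13.29 TPM in ACT IL21, with a rise of 2.19 in ACT (limma adjusted p = 0.00333) that, with the genes held fixed, lost its call without N replicate 1 (adjusted p = 0.0529) or without N replicate 2 (adjusted p = 0.0524), and with the filter applied anew held in all 6 fits (adjusted p up to 0.0337). Tcf7, which encodes a factor of naive and follicular helper T cells, was at 1208 and 961.47 TPM in N, 408.56 and 378.36 TPM in ACT, and 997.18 and 1046 TPM in ACT IL21. Tcf7 fell by 1.45 on the log2 scale in ACT (limma adjusted p = 0.00166) and did not pass in ACT IL21 against N (-0.08, adjusted p = 0.851). Lef1, its relative, fell by 1.78 in ACT (adjusted p = 0.000652) and by 1.33 in ACT IL21 (adjusted p = 0.00304). In ACT IL21 against ACT, Bcl6 and Tcf7 rose and Prdm1 fell (-1.75, limma adjusted p = 0.0215). This Prdm1 call was lost in every fit that left out 1 library, in both versions (log2 fold change -1.9 to -1.59). In no such fit did the calls of Bcl6 and Tcf7 both hold. The falls of Tcf7 and Lef1 in ACT held with any library left out, while that of Lef1 in ACT IL21 lost its call without either N or either ACT IL21 library with the genes held fixed (adjusted p up to 0.0718), but in no fit with the filter applied anew (adjusted p up to 0.0443). The count of 4 regulators higher in ACT IL21 dropped to 0 without each N and each ACT IL21 library with the genes held fixed, and with the filter applied anew likewise, apart from 1 without N replicate 2.

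The genes whose pattern over the 6 libraries was most like that of Id2 were Chsy1, which encodes a chondroitin synthase, Ccr8, a chemokine receptor gene, and Il17rb, which encodes an interleukin-25 receptor chain. Likeness is the root mean square difference between centred log2(TPM + 1) values, and it was 0.274, 0.278 and 0.329 among 8369 candidate genes. Chsy1 was at 4.07 and 5.8 TPM in N, 112.2 and 79.21 TPM in ACT, and 16.1 and 12.04 TPM in ACT IL21. For Id3 the nearest genes were St3gal1, a sialyltransferase gene, Ubash3a, which encodes an inhibitor of T cell receptor signaling, and Cisd3, at 0.081, 0.102 and 0.11. Ubash3a was at 46.8 and 35.92 TPM in N, 38.24 and 26.06 TPM in ACT, and 63.11 and 71.22 TPM in ACT IL21. The points share libraries and pools, so likeness is a description of these profiles.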

How the data were processed

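Total RNA of 3 sorted CD4+ pools (6 libraries) was isolated on Qiagen RNeasy columns, and its polyadenylated part was amplified by NuGEN Ovation, per the labels' protocols. The authors deposited gene-level TPM, 1 column per library. Trimmomatic, Bowtie, RSEM and GRCm38 are named without versions in the submitters' processing notes, while annotation and strandedness were not given there. TPM has a fixed total, so abundant transcripts lower the values of others, and depth is unknown.

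Here 139 repeated symbols were summed, and the 13311 genes that reached 1 TPM in 2 or more libraries were fitted with limma 3.58.1 (R 4.3.3) on log2(TPM + 1), with an intensity trend, all pools in 1 model, two-sided tests and Benjamini-Hochberg adjustment over all genes per comparison. The model had 3 residual and 4.841 prior degrees of freedom. The script was tested on simulated data. The limma tests set each difference against the spread between libraries of a pool, moderated by a trend over all genes. That spread may be technical. Balances were tested by exact permutation over libraries.

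The members and lists were chosen with earlier results of these data known. Named genes were the members, up to 4 of each list with the smallest F test p, and the 3 genes of at least 5 mean TPM most like each member, leaving out provisional symbols and receptor segments. Id1, Id4, Ptcra, Rag1, Rag2, Cd8a, Cd8b1 and further marker genes, named for being at 0 or for passing, fall outside this rule. They were chosen after their values were seen. Alternatives changed the pseudocount, filter, scaling, libraries and replicate block. Sequences and positions come from GENCODE M21. Of these choices, 3 were changed after results had been seen. Fits without a library, or with only 2 pools, first applied the filter anew and then kept the genes of the full fit, and both versions are given where a named call or count is described as lost. Printed transcripts were first those with the longest coding sequence and then the APPRIS principal ones, which changed the Tcf3 and Tcf12 stretch but not that of Id2 and Id3. Genes outside the naming rule were taken off the list of those given with fold changes, apart from Prf1, which is still given with its fold change.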

Additional observations from a re-analysis of the deposited data

How the results depend on the processing

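With the genes tested held fixed, over the 15 differences of the members, 168 of 177 alternative fits kept direction and side of the threshold, 3 lost the call and 6 changed sign, each of these 9 with 1 library left out. With 1 library left out, the Id2 difference ranged from 1.58 to 1.97 for ACT IL21 against N and from -2.27 to -1.87 for ACT IL21 against ACT, with the calls named above lost. The sign changed within -0.79 to 0.07 for Tcf4 in ACT against N, -0.12 to 0.01 for Tcf12 in ACT IL21 against N, and -0.51 to 0.27 for Tcf3 in ACT IL21 against ACT, none of which passed. Tcf4 could not be fitted at a filter of 5 TPM. The Id to E-protein balance ranged from 1.12 to 1.68 for ACT IL21 against N and from -1.84 to -1.28 against ACT. Counts of genes past the threshold, 743, 677 and 259 for ACT against N, ACT IL21 against N and ACT IL21 against ACT, ranged with 1 library left out from 205 to 526, 75 to 728 and 0 to 81. The 0, by limma without ACT IL21 replicate 1, stood beside 1631 genes at an unadjusted p below 0.05. Without a filter the counts were 469, 410 and 124, and with only the 2 pools compared 417 for ACT against N and 92 for ACT IL21 against ACT. Holding the genes fixed was chosen after seeing the data, in place of fits run first that applied the filter anew to the libraries kept. In those first fits Id2 passed in all 7 fits of each comparison and no other member passed in any. The counts were then, without N replicate 1, N replicate 2, ACT replicate 1, ACT replicate 2, ACT IL21 replicate 1 and ACT IL21 replicate 2 in turn, 260, 275, 540, 678, 564 and 568 for ACT against N, 213, 212, 903, 901, 186 and 169 for ACT IL21 against N, and 138, 134, 145, 202, 59 and 32 for ACT IL21 against ACT, and with only 2 pools 560, 881 and 137. The same signs changed as above, to 0.07 for Tcf4, 0.01 and 0.0 for Tcf12, and 0.11 and 0.27 for Tcf3. Why the 2 versions differ was not tested. With the replicate number as a block the counts were 784, 732 and 284, and no call of a member changed. Replicate deviations correlated across genes at 0.21 for N and ACT, -0.004 for N and ACT IL21 and 0.000782 for ACT and ACT IL21, so the numbers were not taken to pair the libraries, and whether they share animals is not known from the labels. Since depth is unknown, no counting interval or detection floor could be given for Tcf4 or the genes listed at 0.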

Other observations

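The genes with profiles most like those of the E-protein genes were found by the same measure of likeness. They were picked from these same libraries, so features they share with a member follow from that choice. For Tcf12 they were Efcab14, Il2rg, which encodes the common gamma chain of cytokine receptors, and Mis12, a kinetochore gene, at root mean square differences of 0.042, 0.051 and 0.058. Il2rg was at 846.55 and 783.96 TPM in N, 949.73 and 911.46 TPM in ACT, and 691.8 and 769.21 TPM in ACT IL21, so it too was highest in both ACT libraries. The difference was below 0.25 for 2042 of 8369 candidate genes, so a profile as flat as that of Tcf12 was common. For Tcf3 the difference was below 0.25 for 233 candidate genes. The nearest were Chchd5, Mogs, a glucosidase gene of protein glycosylation, and Atp6v0b, a proton pump gene, at 0.079, 0.083 and 0.124. Like Tcf3, by which they were picked, each was higher in ACT IL21 replicate 2 than in replicate 1. Mogs was at 10.86 and 19.77 TPM in those libraries. For Tcf4 they were Lyrm2, Sun1 and Klhl3, at 0.16, 0.217 and 0.23.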
